A study of Mus musculus with 8 samples.

Results

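The genes of elastic fibres and of the lysyl oxidases that cross-link them were followed in primary mouse vascular smooth muscle cells, which form the muscular layer of arteries. They were taken as the rows of the deposited expression table whose symbol is Eln, Fbn1, Fbln1, Fbln2, Fbln5, Lox, Loxl1, Mfap4, Mfap5 or Emilin1. Of these 10 listed genes, 9 were found among the 27249 genes of the table, and Mfap4 was not analysed here. Polyadenylated RNA was sequenced in 8 libraries, 2 in each of 4 groups. GFP cells, which overexpressed green fluorescent protein and are labelled WT, served as the control, either in growth or in osteogenic medium. In THOC5 cells the overexpressed protein was THOC5, which belongs to the THO complex of mRNA processing and export, and the media were the same 2. The design text gives the osteogenic treatment as inorganic phosphate for 6 days, a culture model of arterial calcification. All groups are thus overexpressing cells, the sources used here give neither the vector nor its promoter, and reads of introduced and endogenous Thoc5 were not separated.

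Elastic fibres give large arteries their recoil. Monomers of tropoelastin, encoded by Eln, are deposited on a scaffold of fibrillin microfibrils with the help of fibulins and emilin, and lysyl oxidases oxidise lysine residues so that the monomers become covalently joined. In arteries smooth muscle cells are the main makers of these fibres, and fibres that have been broken or poorly cross-linked are a known site of medial calcification.

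The start regions of Emilin1, Fbn1 and Fbln2 are shown because these are the most highly read of the genes that have one in the sequence table, and all were lowest in the same libraries. Each is a RefSeq sequence of 300 bases on GRCm38.p6, from 250 bases before the transcription start to 50 after it, written 5′ to 3′ on the gene's own strand. Capitals mark the GC box (GGGCGG) and the SMAD-type element (GTCTG), each on either strand. The Emilin1 window holds only the SMAD-type element and the windows of Fbn1 and Fbln2 only the GC box.
Emilin1 (chr5:30913536-30913835, plus strand): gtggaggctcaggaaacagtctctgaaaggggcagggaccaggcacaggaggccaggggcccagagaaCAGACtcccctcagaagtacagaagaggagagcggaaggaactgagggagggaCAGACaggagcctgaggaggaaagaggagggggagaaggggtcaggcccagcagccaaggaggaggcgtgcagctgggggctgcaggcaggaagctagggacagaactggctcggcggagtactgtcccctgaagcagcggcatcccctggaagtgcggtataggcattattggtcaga
Fbn1 (chr2:125506389-125506688, minus strand): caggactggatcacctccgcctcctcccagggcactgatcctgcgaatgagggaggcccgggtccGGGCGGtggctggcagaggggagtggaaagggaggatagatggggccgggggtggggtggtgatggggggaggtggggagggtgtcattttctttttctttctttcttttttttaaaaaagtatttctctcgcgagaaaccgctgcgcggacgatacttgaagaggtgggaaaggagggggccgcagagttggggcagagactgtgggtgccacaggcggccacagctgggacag
Fbln2 (chr6:91212514-91212813, plus strand): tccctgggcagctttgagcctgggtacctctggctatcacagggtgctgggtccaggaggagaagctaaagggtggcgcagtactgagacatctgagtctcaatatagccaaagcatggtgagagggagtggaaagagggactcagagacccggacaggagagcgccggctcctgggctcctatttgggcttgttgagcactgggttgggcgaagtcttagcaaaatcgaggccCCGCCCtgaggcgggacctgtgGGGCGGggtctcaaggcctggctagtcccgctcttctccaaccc
The table held 7 start windows for 5 of the genes, which were Fbn1, Fbln1, Fbln2, Fbln5 and Emilin1. A GC box occurred in 4 of the 7 windows, against 35.7% of all 32851 windows, and the SMAD-type element in 5 of 7, against 49.6%. The 2 Fbln1 windows share 241 bases and hold the same SMAD-type matches, so by gene the GC box occurred in 4 of 5 and the SMAD-type element in 3 of 5. The TATA box (TATAAA), the AP-1 site (TGANTCA), the M-CAT element (CATTCC) and the CArG box occurred in 0 of 7, against 13.6%, 7.81%, 14.7% and 1.63% of all windows. The GC content was 61.7% for Emilin1, 60.3% for Fbn1 and 60.3% for Fbln2, with a median of 52.7% over all windows. These matches describe letters only.

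Sequencing depth was similar across groups except for the shallower GFP growth libraries. Reads ranged from 7058681 to 10581042 per library, and values below are normalized read counts, that is reads divided by 1 size factor per library. Thoc5 stood between 458 and 650 normalized counts in the 4 GFP libraries and between 1406 and 2155 in the 4 THOC5 libraries, so the libraries matched their labels. The labels do not say that replicates came from separate cultures, so p-values measure only the spread between these libraries, which may be technical. Smooth muscle markers were read in every group, at very unequal levels. Their means in GFP growth libraries ran from 9.98 for Des to 21362 for Acta2, smooth muscle actin. Myh11 averaged 124 and Tagln 514 there. By limma, 4698 of 22575 tested genes passed in the medium response of GFP cells, and 49.3% of these rose. Scaled to library totals, 68.8% rose, with a log2 shift of 0.127 in the median gene. For THOC5 against GFP cells in osteogenic medium 51.4% of passing genes rose, or 29.0% scaled to totals, with a shift of -0.163. For the interaction of both factors 57.5% rose, or 39.1% scaled to totals, with a shift of -0.100.

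Elastin itself was nearly unread. Eln (ENSMUSG00000029675.12, chromosome 5, 134702593 to 134747323, GRCm38 as for all positions here), whose product is the bulk of the mature fibre, had 0 and 0 reads in the GFP growth libraries and 0 and 1 in the GFP osteogenic libraries. The THOC5 growth libraries had 1 and 2 reads, the THOC5 osteogenic libraries 0 and 0. The 4 reads over all 8 libraries are at or below what a count of 0 allows in each, which is 3 reads or 2.59 to 3.99 normalized counts and covers counting error only. No fold or test is therefore given for Eln, and its expression was not detectable at this depth in any group. Of its 8098 exon bases 267 are shared with an antisense gene, Gm30003, so this overlap touches only 3.30% of them.

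The remaining 8 genes were read well enough to pass the filter of at least 1 normalized count in at least 2 libraries. Their levels can be compared per kilobase of exon, with exon lengths from GENCODE M21, which may not be the annotation that was counted. In GFP cells in growth medium Emilin1 led at 5317 ± 111 normalized counts per kb (SD, n = 2), followed by Lox at 4070 ± 1064 and Fbln2 at 4024 ± 221. Lox and Fbln2 overlapped between libraries. Fbn1 stood at 338 ± 4.25 per kb, Fbln5 at 186 ± 1.80 and Loxl1 at 164 ± 10.5. Fbln1 at 29.2 ± 1.71 and Mfap5 at 22.5 ± 2.55 were the lowest of those detected. Emilin1, Lox and Fbln2 thus stood well apart from the other genes in level.

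**Figure D1:**
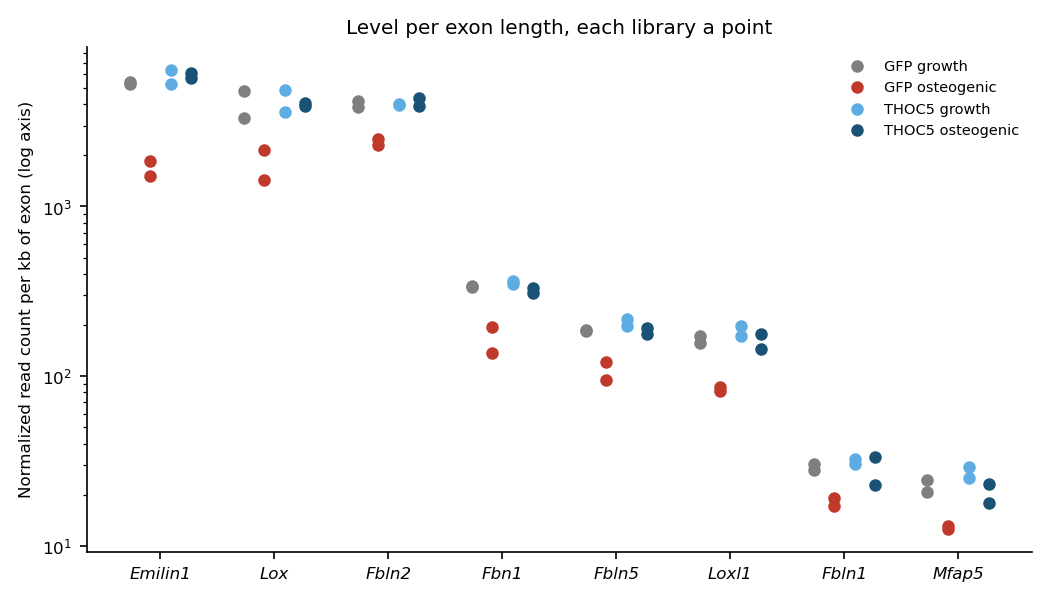
Normalized read count per kb of exon (log axis) of the 8 detected genes, each point 1 library, coloured by group. Emilin1 stands highest at 5317 per kb in GFP cells in growth medium and drops to 1682 in osteogenic medium, below Fbln2 at 2396.

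In osteogenic medium GFP cells carried less of all 8 detected genes. Every one fell past the test, by 1.60-fold to 3.18-fold, against 10.6% of all tested genes that fell. Both GFP libraries in osteogenic medium lay below all other 6 libraries for 8 of 8 genes, an arrangement that 18.4% of all tested genes showed. Among the 10655 genes with a mean of at least 50 normalized counts, a range closer to that of these 8, 19.1% fell and 28.7% showed that arrangement. The median log2 change of the 8 genes was -0.89, beside 0.00 over all tested genes. All tests come from a limma fit over all genes with Benjamini-Hochberg adjustment, changes are on the log2(normalized count + 1) scale, and ± after a log2 change is its SE for 2 libraries against 2. In bulk RNA, fewer cells of a type and less RNA per cell cannot be told apart.

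**Figure D2:**
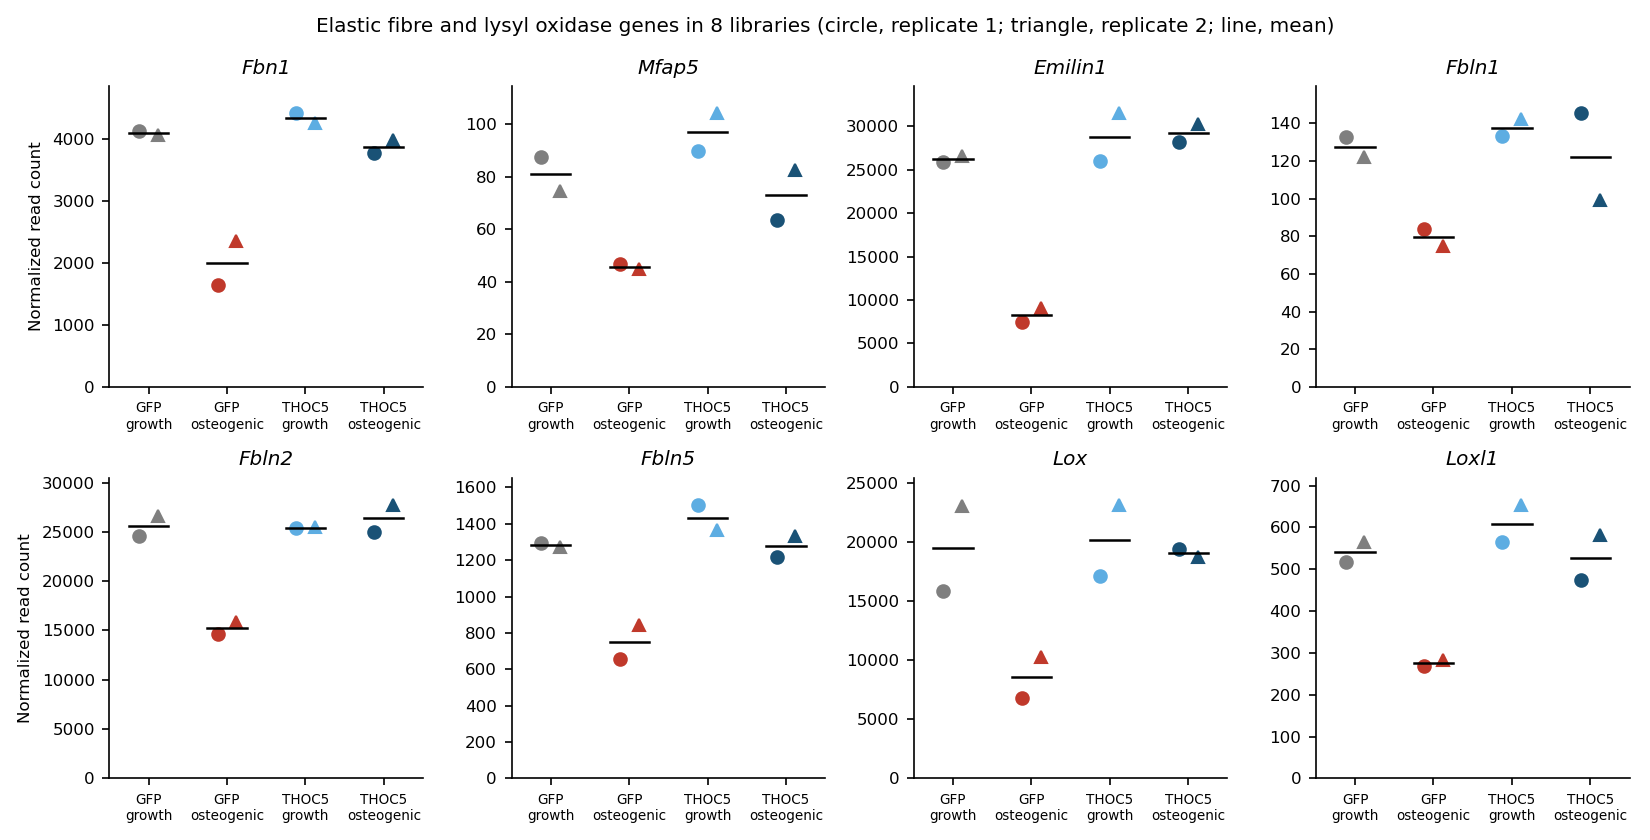
Normalized read count (each axis from 0) of the 8 detected genes in 8 libraries, with replicate 1 as a circle, replicate 2 as a triangle and the group mean as a line. In every panel both GFP libraries in osteogenic medium are the lowest.

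Among the microfibril genes, Fbn1 (ENSMUSG00000027204.13, chromosome 2, 125300594 to 125507993) encodes fibrillin-1, the backbone of the microfibril. Its normalized counts were 4131 and 4058 in GFP growth, 1649 and 2355 in GFP osteogenic, 4409 and 4259 in THOC5 growth, and 3765 and 3982 in THOC5 osteogenic libraries. The GFP osteogenic libraries stood well under the rest, and the THOC5 osteogenic libraries lay just under the range of the 4 growth libraries. Fbn1 fell 2.08-fold in GFP cells (log2 -1.05 ± 0.13, limma adjusted p = 2.67e-04). It was 1.96-fold higher in THOC5 than in GFP cells in osteogenic medium (log2 0.97 ± 0.13, limma adjusted p = 4.02e-04). Gm9913, on the opposite strand, shares 2442 of the 12128 exon bases of Fbn1, and reads there cannot be assigned to a strand.

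Mfap5 (ENSMUSG00000030116.14, chromosome 6, 122505845 to 122529290) encodes a small microfibril-associated glycoprotein that binds fibrillin. Its values were 87.4 and 74.4 in GFP growth, 46.7 and 44.7 in GFP osteogenic, 89.8 and 104 in THOC5 growth, and 63.6 and 82.6 in THOC5 osteogenic libraries. Of the THOC5 osteogenic libraries 1 lay below all 4 growth libraries and 1 within their range, and both were above the GFP osteogenic pair. Mfap5 fell 1.75-fold in GFP cells (log2 -0.81 ± 0.19, limma adjusted p = 0.0113), but dropping GFP growth replicate 1 gave an adjusted p of 0.0706, dropping GFP osteogenic replicate 1 gave 0.0624 and dropping its replicate 2 gave 0.0594. It was 1.57-fold higher in THOC5 cells in osteogenic medium (limma adjusted p = 0.0299). That call was lost with adjusted p of 0.108 and 0.116 without GFP osteogenic replicate 1 or 2, 0.245 without THOC5 osteogenic replicate 2, 0.0871 scaled to library totals and 0.0803 by DESeq2. The authors' deposited table also has it at an adjusted p of 0.0842.

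Emilin1 (ENSMUSG00000029163.9, chromosome 5, 30913402 to 30921277) encodes elastin microfibril interfacer 1, a glycoprotein at the border of elastin and microfibrils that also restrains the processing of pro-TGF-beta. It read 25864 and 26641 in GFP growth, 7495 and 9118 in GFP osteogenic, 26031 and 31495 in THOC5 growth, and 28140 and 30229 in THOC5 osteogenic libraries. The 6 libraries outside GFP osteogenic formed 1 band, and both THOC5 osteogenic libraries lay within the growth range. Emilin1 had the largest change of the 8 genes, a 3.18-fold fall in GFP cells (log2 -1.67 ± 0.13, limma adjusted p = 1.07e-05). In osteogenic medium it was 3.53-fold higher in THOC5 than in GFP cells (log2 1.82 ± 0.13, limma adjusted p = 6.17e-06).

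The fibulins differed in level more than in response. Fbln2 (ENSMUSG00000064080.12, chromosome 6, 91212455 to 91272540), which binds fibrillin and tropoelastin, read 24638 and 26627 in GFP growth and 14662 and 15857 in GFP osteogenic libraries. The THOC5 growth libraries read 25374 and 25511, the THOC5 osteogenic libraries 25005 and 27751. Only the GFP osteogenic pair stood apart. Fbln2 fell 1.68-fold in GFP cells (log2 -0.75 ± 0.10, limma adjusted p = 4.97e-04) and was 1.73-fold higher in THOC5 cells in osteogenic medium (limma adjusted p = 3.15e-04).

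Fbln5 (ENSMUSG00000021186.9, chromosome 12, 101746565 to 101819055) encodes a fibulin that tethers tropoelastin to microfibrils and to cell surface integrins. It read 1292 and 1275 in GFP growth, 656 and 842 in GFP osteogenic, 1504 and 1365 in THOC5 growth, and 1217 and 1334 in THOC5 osteogenic libraries. The GFP osteogenic pair was again lowest, with a gap between its own libraries. Fbln5 fell 1.73-fold in GFP cells (log2 -0.79 ± 0.11, limma adjusted p = 6.66e-04). It was 1.71-fold higher in THOC5 than in GFP cells in osteogenic medium (log2 0.78 ± 0.11, limma adjusted p = 6.46e-04).

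Fbln1 (ENSMUSG00000006369.14, chromosome 15, 85205949 to 85286535), whose product is found in elastic fibres and basement membranes, was read far less. Its values were 133 and 122 in GFP growth, 83.9 and 75.1 in GFP osteogenic, 133 and 142 in THOC5 growth, and 145 and 99.5 in THOC5 osteogenic libraries. The THOC5 osteogenic libraries straddled the growth range, 1 above it and 1 below. Fbln1 fell 1.60-fold in GFP cells (log2 -0.68 ± 0.18, limma adjusted p = 0.0209). Without 1 library of that comparison its adjusted p was 0.0963 (GFP growth replicate 1), 0.0554 (GFP growth replicate 2), 0.0779 (GFP osteogenic replicate 1) or 0.119 (GFP osteogenic replicate 2), and it was 0.0581 scaled to library totals and 0.0507 with any value above 0. In osteogenic medium it was 1.51-fold higher in THOC5 cells (limma adjusted p = 0.0361), a call kept in 8 of 16 alternatives. Its log2 difference went from 0.59 to 0.32 without THOC5 osteogenic replicate 1, with a limma adjusted p of 0.295, and to 0.86 without THOC5 osteogenic replicate 2. The authors' deposited table gives an adjusted p of 0.0520 for it.

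Lysyl oxidases are copper enzymes that start the cross-linking of elastin and collagen. Lox (ENSMUSG00000024529.14, chromosome 18, 52516067 to 52529867) read 15853 and 23042 in GFP growth, 6801 and 10250 in GFP osteogenic, 17143 and 23120 in THOC5 growth, and 19375 and 18709 in THOC5 osteogenic libraries. Replicate 2 was well above replicate 1 in 3 of the 4 groups, but not in the THOC5 osteogenic libraries, and the GFP osteogenic pair did not overlap any other library. Lox fell 2.29-fold in GFP cells (log2 -1.19 ± 0.21, limma adjusted p = 0.00227) and was 2.28-fold higher in THOC5 cells in osteogenic medium (log2 1.19 ± 0.21, limma adjusted p = 0.00215). Loxl1 (ENSMUSG00000032334.10, chromosome 9, 58287738 to 58313186), the family member that fibulin-5 guides to elastic fibres, read 517 and 566 in GFP growth and 270 and 283 in GFP osteogenic libraries. The THOC5 growth libraries read 565 and 654, the THOC5 osteogenic libraries 474 and 582. One THOC5 osteogenic library was below all growth libraries and the other among them. Loxl1 fell 1.96-fold in GFP cells (log2 -0.97 ± 0.12, limma adjusted p = 2.26e-04) and was 1.90-fold higher in THOC5 cells in osteogenic medium (limma adjusted p = 2.74e-04).

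Because the 3 most abundant genes fell by unequal amounts, their order per kb changed. In GFP cells in osteogenic medium Fbln2 led at 2396 ± 133 normalized counts per kb, with Lox at 1784 ± 511 and Emilin1 at 1682 ± 232 overlapping below it. In THOC5 cells in the same medium Emilin1 led again at 5911 ± 299 per kb, with Fbln2 at 4141 ± 305 and Lox at 3985 ± 98.6. The 9 genes together took 0.816 ± 0.0873% of all reads in GFP growth libraries and 0.410 ± 0.0539% in GFP osteogenic libraries. In THOC5 libraries they took 0.815 ± 0.0748% in growth and 0.829 ± 0.0227% in osteogenic medium, so the GFP osteogenic libraries alone stood low. Most of these reads came from Emilin1, Fbln2 and Lox, so the shares mainly describe these 3 genes.

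With THOC5 overexpressed, the medium changed none of the 8 genes past the test, where 0.54% of all tested genes passed. By limma 0 of 8 passed, 0 had an unadjusted p under 0.05, and edgeR and DESeq2 each called 0, against 0.704% and 0.664% of all tested genes by those tools. The log2 changes ran from -0.41 ± 0.19 for Mfap5 to 0.05 ± 0.10 for Fbln2. Their 95% intervals bound what could have been missed, from -0.25 to 0.30 for Emilin1, -0.45 to 0.13 for Fbn1, -0.53 to 0.40 for Lox and -0.83 to 0.01 for Mfap5. A fall of the size seen for Emilin1 in GFP cells thus lies outside its interval in THOC5 cells, while for Mfap5 the interval includes the -0.81 measured in GFP cells.

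**Figure D3:**
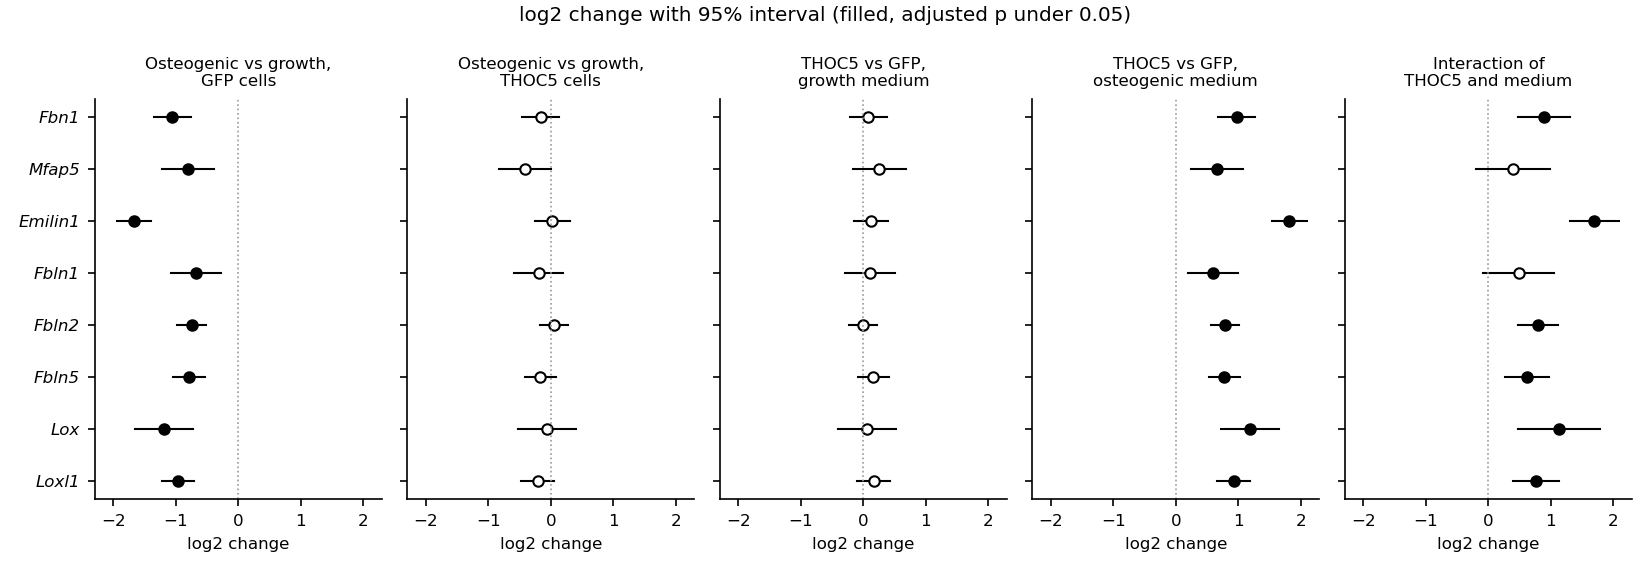
log2 change with its 95% interval for 8 genes in 5 contrasts of the limma fit; filled points have an adjusted p under 0.05. All 8 are filled left of 0 in GFP cells and right of 0 for THOC5 against GFP cells in osteogenic medium, none in THOC5 cells or in growth medium, and 6 for the interaction.

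In growth medium THOC5 and GFP cells did not differ past the test at any of the 8 genes, where 0.00443% of all tested genes, which is Thoc5 alone, passed. By limma 0 of 8 had an unadjusted p under 0.05, and edgeR and DESeq2 called 0. The log2 differences ran from -0.01 ± 0.10 for Fbln2 to 0.26 ± 0.19 for Mfap5, and the interval for Emilin1 was -0.15 to 0.40. In osteogenic medium all 8 were higher in THOC5 cells, where 11.3% of all tested genes and 20.7% of those with a mean of at least 50 were higher, with a median of 0.86 beside 0.00 over all genes. This comparison and the medium response of GFP cells share the 2 GFP osteogenic libraries, so their opposite signs are not 2 separate observations. The 2 THOC5 osteogenic libraries both lay within the range of the 4 growth libraries for 2 of the 8 genes, Emilin1 and Lox, 1 of them did for 4, and neither did for Fbn1 and Fbln1. The share of all tested genes placed in this way was not computed. These counts are thus not read as a return to growth level or as a lack of it.

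The interaction asks directly whether the medium response differed between both kinds of cell. It passed for 6 of the 8 genes, all with a higher log2 response in THOC5 than in GFP cells. In this direction 5.3% of all tested genes and 10.5% of those with a mean of at least 50 passed. The difference of responses was 1.69 ± 0.18 for Emilin1 (limma adjusted p = 5.54e-04) and 0.80 ± 0.15 for Fbln2 (limma adjusted p = 0.00765) on the log2 scale. It was 1.13 ± 0.30 for Lox, 0.89 ± 0.19 for Fbn1, 0.76 ± 0.17 for Loxl1 and 0.62 ± 0.16 for Fbln5, with limma adjusted p from 0.0142 to 0.0392. It was 0.48 ± 0.26 for Fbln1 (limma adjusted p = 0.291) and 0.40 ± 0.27 for Mfap5 (limma adjusted p = 0.426), which did not pass. The count of 6 depended on single libraries. It was 1 without THOC5 osteogenic replicate 2, 2 without THOC5 growth replicate 1, and 3 without GFP growth replicate 2, GFP osteogenic replicate 1 or THOC5 osteogenic replicate 1, and it was 2 with any value above 0 kept. Scaled to library totals it was 4. Emilin1 passed in all 15 alternatives that gave an interaction.

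Other genes of the pathway were counted from lists. Among 22 tested microfibril and scaffold genes 14 fell and 1 rose in GFP cells in osteogenic medium, against 10.6% and 10.3% of all tested genes. In that medium 14 were higher in THOC5 than in GFP cells, where 11.3% of all tested genes were higher. By limma 0 were lower, 17 of the 22 having an unadjusted p under 0.05 in either direction, and edgeR called 1 lower and DESeq2 0, against 10.7% of all tested genes lower by limma. Members of the family named latent TGF-beta binding proteins were among those that fell. Ltbp2 went from 980 ± 97.8 to 236 ± 5.59 normalized counts (log2 -2.05 ± 0.10), Ltbp1 from 8863 ± 255 to 3743 ± 619 (log2 -1.25 ± 0.11) and Ltbp3 from 4030.3 ± 142.7 to 1854 ± 69.6 (log2 -1.12 ± 0.10). Adamtsl4, which promotes fibrillin deposition, fell by 1.21 ± 0.11 and Efemp2, which encodes fibulin-4 and brings Lox to tropoelastin, fell by 0.86 ± 0.08 on the log2 scale. Fbn2, fibrillin-2, was singled out after its values were seen. It fell in GFP cells (log2 -0.74 ± 0.16, limma adjusted p = 0.00606), its change in THOC5 cells was -0.71 ± 0.16 (limma adjusted p = 0.127), and its interaction was 0.03 ± 0.22 (limma adjusted p = 0.958), unlike that of Fbn1 at 0.89 ± 0.19. The difference between both fibrillins was not tested.

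Of 12 cross-linking genes 4 fell and 1 rose in GFP cells, against 10.6% and 10.3% of all tested genes. In osteogenic medium 6 were higher and 1 lower in THOC5 cells, against 11.3% and 10.7%. Among genes with a mean of at least 50 these shares were 19.1% and 18.9%, and 20.7% and 19.5%. Bmp1, the protease that activates pro-lysyl oxidase, went from 3234 ± 4.56 to 1528 ± 45.0 normalized counts (log2 -1.08 ± 0.08). Pcolce, an enhancer of that class of protease, fell by 0.98 ± 0.08 and Loxl3, a lysyl oxidase, fell by 0.87 ± 0.09 on the log2 scale. The copper importer Slc31a1 went the other way and rose by 0.58 ± 0.10 on the log2 scale. Of the remaining lysyl oxidases, named to complete the family after their values were seen, Loxl2 had a log2 change of -0.59 ± 0.19 (limma adjusted p = 0.0527) and Loxl4 of -0.29 ± 0.11 (limma adjusted p = 0.0812), and neither passed.

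Of 8 tested elastolytic genes, which break elastin down, 2 fell and 1 rose in GFP cells. Of all tested genes 10.6% fell and 10.3% rose. The shares were 19.1% and 18.9% among genes with a mean of at least 50, so no direction is read for this list. The matrix metalloproteinases Mmp14 and Mmp2 changed by -0.96 ± 0.09 and -0.67 ± 0.09, and the lysosomal cathepsin Ctsl by 0.36 ± 0.10 (log2 changes). DESeq2 called 3 of the 8 lower in GFP cells. In osteogenic medium 3 of the 8 were higher and 1 lower in THOC5 than in GFP cells, beside 20.7% and 19.5% of genes with a mean of at least 50. Of 9 inhibitor genes 5 fell, and A2m, a broad protease inhibitor, went from 563 ± 181 to 14.2 ± 7.80 normalized counts. Reck at -0.69 ± 0.10 and Timp1 at -0.45 ± 0.08 (log2 changes) also fell. In osteogenic medium 6 of the 9 inhibitors were higher in THOC5 cells, beside the same 20.7%.

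Of 10 receptor genes 6 fell in GFP cells and 3 were higher in THOC5 cells in osteogenic medium, against 10.6% and 11.3% of all tested genes. Those shares were 19.1% and 20.7% among genes with a mean of at least 50, so the 3 are not read as a direction. Itga8, the integrin chain of contractile smooth muscle, went from 264 ± 91.4 to 44.0 ± 0.20 normalized counts, and Itgb5 fell by 0.58 ± 0.08 on the log2 scale. Of 16 regulators of elastic fibre genes 7 fell and 2 rose, with the TGF-beta isoform Tgfb3 at -1.29 ± 0.10, the coactivator of serum response factor Mrtfa at -0.63 ± 0.08 and the repressor of SMAD signalling Skil at 0.56 ± 0.10. For these regulators 7 were higher and 3 lower in THOC5 cells in osteogenic medium, against 11.3% and 10.7% of all tested genes. With a mean of at least 50 it was 20.7% and 19.5% of genes, so the 3 lower are not read as a direction. Over all 6 lists, 38 of 77 tested genes fell and 5 rose in GFP cells, against 10.6% and 10.3% of all tested genes. Among genes with a mean of at least 50 the shares were 19.1% and 18.9%. In THOC5 cells 0 of the 77 passed by limma, 5 had an unadjusted p under 0.05, edgeR called 2 lower and DESeq2 called 1 lower. In that response only 0.54% of all tested genes passed by limma, 0.704% by edgeR and 0.664% by DESeq2. The count of 0 is thus not read as a result about these lists. The lists were chosen with earlier results of these data known, and their direction is not independent evidence.

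**Figure D4:**
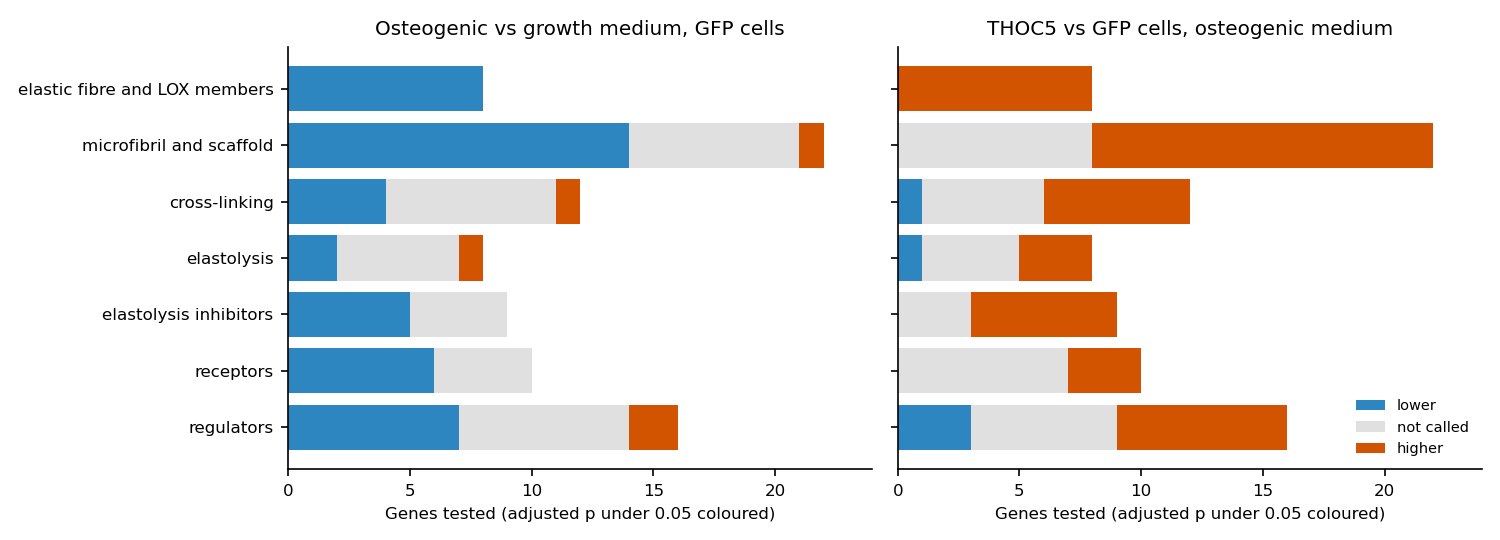
Number of tested genes lower (blue), higher (orange) or not called (grey) by limma at an adjusted p under 0.05, for the members and 6 pathway lists in 2 comparisons. In GFP cells 14 of 22 microfibril and scaffold genes were lower in osteogenic medium, and 14 were higher in THOC5 than in GFP cells there.

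Patterns most like those of 2 of the genes were found by centring log2(normalized count + 1) of each gene over the 8 libraries and taking the root mean square difference. Emilin1 was chosen for this after its values were seen. Among 10360 genes, the nearest to Emilin1 was the collagen-binding integrin chain Itga11, at a difference of 0.0294, followed by Col6a1 at 0.0823, Hoxaas2 at 0.0824, Cthrc1 at 0.0834 and Tgfbi at 0.0873. Itga11 read 702 normalized counts on average in GFP growth, 215 in GFP osteogenic, 749 in THOC5 growth and 753 in THOC5 osteogenic libraries. The nearest to Lox was Gpr162 at 0.0956, followed by Dclk1 at 0.117, Slc16a4 at 0.123, Aspm at 0.125 and Sesn3 at 0.125. Among the 8 genes themselves the closest pair was Fbn1 and Fbln5 at 0.109 and the farthest was Fbln1 and Emilin1 at 0.516. All points share the same 8 libraries, and these distances carry no test.

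Markers of fibroblasts and of smooth muscle mostly fell and rose with the same groups as the elastic fibre genes, while the other marker lists were mixed. Single markers below were named after their values were seen. Adventitial fibroblasts also make Mfap5, Fbln1 and Fbln2. Of all tested genes 10.6% fell and 10.3% rose in GFP cells in osteogenic medium, and 11.3% were higher in THOC5 cells there. Among genes with a mean of at least 50 these shares were 19.1%, 18.9% and 20.7%. No list was tested against them, and the macrophage, endothelial and chondrocyte counts are not read as a direction. Of 12 tested fibroblast markers 7 fell in GFP cells in osteogenic medium and 9 were higher in THOC5 cells there. Their summed level was 34136 to 38646 normalized counts in GFP growth libraries, 8735 to 12277 in GFP osteogenic, 42707 to 43696 in THOC5 growth, and 35460 to 40071 in THOC5 osteogenic libraries. Pdgfra averaged 2110.3 normalized counts in GFP growth and 963 in GFP osteogenic libraries, Dcn 13283 and 4613 and C3 14971 and 1794. Most of the summed level came from C3 and Dcn, and Dcn is also counted in the microfibril and scaffold list. Ly6a, another listed fibroblast marker, averaged 2010.2 and 2276 in those groups (limma adjusted p = 0.402). It rose from 1801 to 3413 in THOC5 cells (log2 0.92, limma adjusted p = 0.00408). The adventitial markers Dpt and Pi16 had 7 and 12 reads over all 8 libraries. Smooth muscle markers fell as well, 7 of 8, with a summed level of 25072 to 29288 in GFP growth and 12005 to 13905 in GFP osteogenic libraries. In THOC5 cells that sum was 31451 to 32192 in growth and 25662 to 27649 in osteogenic medium. Most of it came from Acta2, at a mean of 21362 in GFP growth and 10332 in GFP osteogenic libraries. Of 5 tested macrophage markers 2 fell and 1, Cd68, rose in GFP cells in osteogenic medium (limma adjusted p = 0.00729). They summed to 946 to 1182 in GFP growth, 679 to 694 in GFP osteogenic, 1051 to 1230 in THOC5 growth and 961 to 1139 in THOC5 osteogenic libraries, with the defining markers Ptprc and Adgre1 at 4 reads each over all 8 libraries. Of 4 tested endothelial markers 1 fell by limma, which was Vwf, while edgeR also called 1 higher. The median log2 change was 0.52, but Tek, Pecam1 and Kdr averaged only 1.91, 6.15 and 9.31 normalized counts in GFP growth libraries. None of these passed by limma. The endothelial markers summed to 75.8 to 117 in GFP growth, 36.7 to 55.4 in GFP osteogenic, 91.7 to 122 in THOC5 growth and 84.5 to 87.2 in THOC5 osteogenic libraries. Tie1 had 3 reads over all libraries. Without Vwf the sum was 17.3 to 17.5 in GFP growth and 26.8 to 43.2 in GFP osteogenic libraries. Of 8 tested chondrocyte and osteoblast markers 3 fell and 2 rose. Their sum was 1333 to 1384 in GFP growth, 1391 to 2017 in GFP osteogenic, 1323 to 1436 in THOC5 growth and 1332 to 1482 in THOC5 osteogenic libraries, with Bglap and Acan at 4 reads each. Spp1 carried that rise, at 299 and 234 in GFP growth and 1192 and 468 in GFP osteogenic libraries. Without it the sum was 1085 to 1099 in GFP growth and 825 to 923 in GFP osteogenic libraries, and the median log2 change of the list was -0.56. The part of cell composition in the changes of the elastic fibre genes was not tested.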

How the data were processed

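Per the labels' protocols, polyadenylated RNA was made into libraries with an unstranded TruSeq kit. RNA immunoprecipitation named in the design was not analysed here. FastQC, Bowtie2, MACS2, SAMtools and mm10 are named without roles, per the submitters' processing notes, and the sources used here do not give the counting or annotation. For THOC5 growth libraries the replicate numbers of the titles were used, though the column names end otherwise. The deposited signal is a normalized read count. Each library has 1 size factor, and multiplying by it gave whole reads, within 1e-06, for 100% of values. The deposited table also gives log2 fold changes, p-values and scores (SE and statistic) of the authors' 4 comparisons, per the file headers. Columns were matched by the labels' description field, and 0 per-sample columns went unused.

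limma 3.58.1 (R 4.3.3, trend option) was fitted to log2(normalized count + 1) of 22575 genes with at least 1 in at least 2 of 8 libraries, as 4 groups without a block, leaving 4 residual degrees of freedom, and adjusted p-values under 0.05 were called. edgeR 4.0.16 called 4840, 159, 1, 5419 and 2458 genes on the recovered reads in the order GFP response, THOC5 response, growth medium, osteogenic medium and interaction, and DESeq2 1.42.0 was also run. Replicates are not said to be separate cultures, so p-values measure a spread that may be technical. The fit was tested on simulated data. The members and lists were chosen with earlier results of these data known. Named were all members, up to 4 genes per list with the smallest p in the GFP response or in THOC5 against GFP cells in osteogenic medium, and the 5 genes most like Lox with a mean of at least 50. Not every gene that this rule picks is reported here, and single markers of other cells were named outside it. Eln, with 4 reads in all, got no likeness search. Gene positions and lengths came from GENCODE M21 on GRCm38. Mkl1 was matched as Mrtfa, and Mmp7, Elane, C1qa, C1qb, Cdh5, Emcn, Cldn5 and Ibsp were not analysed here.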

Additional observations from a re-analysis of the deposited data

Results flagged for a closer look

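The medium response differed between GFP and THOC5 cells, by the limma interaction term, for 6 of the 8 detected genes. The log2 response was always the higher one in THOC5 cells. The difference of log2 responses was 1.69 for Emilin1, 1.13 for Lox (limma adjusted p = 0.0392), 0.89 for Fbn1 (limma adjusted p = 0.0142), 0.80 for Fbln2, 0.76 for Loxl1 (limma adjusted p = 0.0175) and 0.62 for Fbln5 (limma adjusted p = 0.0369). These calls were kept in 15 of 15 alternatives for Emilin1, 14 for Fbln2, 10 for Fbn1, 10 for Loxl1, 7 for Lox and 6 for Fbln5. Groups of 2 are too small for a search for single outlying libraries.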

How the results depend on the processing

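The counts of genes past the test were 8 in the GFP medium response and 8 for THOC5 against GFP cells in osteogenic medium. They were 7 to 8 and 6 to 8 under the other pseudocount, filters, scaling, library set and tools, and 6 to 8 in both with 1 library left out. The counts of 0 in THOC5 cells and in growth medium were 0 in every alternative. For the interaction the count of 6 was 2 with any value above 0 kept, 4 scaled to library totals, 5 by DESeq2, and 1 to 6 with 1 library left out. A fit with only the 4 libraries compared cannot give an interaction. Leaving out a library leaves a group with 1, assumed to vary like the others. The cause of these shifts was not tested.

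Same-numbered libraries were not treated as pairs, since the correlation of their replicate differences over 10655 genes was over 0.1 for only 2 of 6 pairs of groups and ran from -0.188 to 0.402. It was highest between the GFP and THOC5 growth libraries, where something shared by number is not excluded. With the replicate block the counts were 8, 0, 0, 8 and 6, in the order GFP response, THOC5 response, growth medium, osteogenic medium and interaction.

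Of 632 recomputed log2 values of single genes, 572 kept direction and side of the threshold, 50 were no longer past it and 10 changed sign, all of values that were not called. With 1 library left out, the THOC5 response ranged from -0.46 to 0.078 for Fbln1, -0.025 to 0.13 for Fbln2, -0.28 to 0.15 for Lox and -0.11 to 0.16 for Emilin1. The signs turned without THOC5 osteogenic replicate 2 (Fbln1, Fbln2 and Emilin1, the last at -0.025) and without THOC5 growth replicate 1 (Emilin1) or 2 (Lox). In growth medium the range was -0.066 to 0.046 for Fbln2, -0.21 to 0.33 for Lox and -0.012 to 0.26 for Emilin1. These turned without GFP growth replicate 2 (Fbln2), GFP growth replicate 1 (Lox) and THOC5 growth replicate 2 (Lox at -0.16, and Emilin1). Lox was also at -0.0049 there when scaled to library totals.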
